A study of Mus musculus with 6 samples.

Results

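Transcripts of 10 epithelial keratin genes were measured by RNA sequencing in the esophageal epithelium of E12.5 mouse embryos. The keratins, chosen by name from the 23284 gene symbols of the count table, were 4 basal keratins (Krt5, Krt14, Krt15 and Krt17), 2 squamous keratins (Krt4 and Krt13) and 4 simple-epithelial keratins (Krt7, Krt8, Krt18 and Krt19). The p63KO group (3 libraries) was homozygous for the Trp63-CreERT2 allele, a knock-in of an inducible Cre at the gene of the transcription factor p63, and the control group (3 libraries) came from littermates, titled WT and otherwise labelled only as controls. How many embryos each library holds is not stated in the labels, and p-values therefore measure the spread between these libraries, which may be technical. Trp63 itself was 71.4 ± 8.03 CPM in p63KO and 603 ± 63.9 CPM in control (SD, n = 3 each), where CPM is the count per library size, scaled by the TMM method. A pair of libraries stood apart from their groups. The p63KO replicate 3 nearly lacked several transcripts of cornifying epidermis that the other 5 libraries held. Control replicate 3 held transcripts of intestinal endoderm and of some listed liver genes.

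Keratins are the intermediate filament proteins of epithelial cells. A filament is built from obligate pairs of an acidic type I and a basic type II chain, and the pair in use marks the kind of epithelium: Krt5 with Krt14 or Krt15 in the basal layer of stratified epithelia, Krt4 with Krt13 in the upper layers of internal squamous linings such as the esophagus, and Krt8 with Krt18, joined by Krt7 and Krt19, in simple epithelia. The embryonic foregut starts as a simple, Krt8-positive tube, and the esophagus becomes stratified and squamous under p63. In the reference annotation the type I genes Krt14, Krt15, Krt17, Krt13 and Krt19 lie on mouse chromosome 11 and the type II genes Krt5, Krt4, Krt7 and Krt8 on chromosome 15, where the type I gene Krt18 directly neighbours Krt8. Krt15 lies between Krt13 and Krt19.

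Promoter sequences are shown for Krt5 and Krt14, a basal pair, and for Krt7, the simple keratin with the largest change, because Krt5 fell furthest of the 10 keratins and Krt14 is its classical partner. Each is the 250 bases before the RefSeq start in build GRCm38.p6, read 5′ to 3′ on the gene's strand, with capitals marking matches to any of 4 motifs searched on both strands (the TATA box, spelled TATAAA, the AP-1 site, spelled TGANTCA, the GC box, spelled GGGCGG, and the p53-family decamer).
Krt5 (chr15:101712906-101713155, minus strand): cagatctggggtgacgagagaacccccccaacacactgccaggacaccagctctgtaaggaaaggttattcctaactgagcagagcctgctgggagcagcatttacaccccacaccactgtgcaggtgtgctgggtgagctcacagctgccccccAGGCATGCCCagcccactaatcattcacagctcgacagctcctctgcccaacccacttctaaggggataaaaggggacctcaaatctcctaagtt
Krt14 (chr11:100206031-100206280, minus strand): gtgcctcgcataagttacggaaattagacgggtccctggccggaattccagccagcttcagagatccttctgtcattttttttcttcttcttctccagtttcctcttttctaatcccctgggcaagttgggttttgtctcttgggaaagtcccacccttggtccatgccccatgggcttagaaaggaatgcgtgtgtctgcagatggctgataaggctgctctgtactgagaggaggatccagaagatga
Krt7 (chr15:101412153-101412402, plus strand): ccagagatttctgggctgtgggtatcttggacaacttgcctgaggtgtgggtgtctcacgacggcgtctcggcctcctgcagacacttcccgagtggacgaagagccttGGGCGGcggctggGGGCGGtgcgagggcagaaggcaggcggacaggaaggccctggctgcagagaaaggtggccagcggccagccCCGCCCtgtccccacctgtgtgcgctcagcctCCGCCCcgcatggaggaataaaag
The capitals of Krt5 are a p53-family decamer that begins 95 bases before the start, a motif held by 7.13% of 32851 promoter windows of this length. The capitals of Krt7 are 4 GC boxes, beginning 141, 128, 56 and 24 bases before the start, and 32.7% of all windows held at least 1, while 12.4% held a TATA box. The Krt14 window held none of the 4 motifs, and neither did those of Krt8 and Krt18. Of the 2 windows listed for Krt13, the upstream one held 1 TGANTCA match and the other held 2, and 6.75% of all windows held that motif. No entry was used for Krt15, Krt17, Krt4 and Krt19. These matches describe the letters of the windows, and binding was not measured.

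The keratin make-up of the epithelium differed between the genotypes. Of the 6 basal and squamous keratins, 4 fell in p63KO (Krt5, Krt15, Krt17 and Krt13) and 2 did not pass the test (Krt14 and Krt4), while all 4 simple keratins rose. By the edgeR quasi-likelihood test with Benjamini-Hochberg adjustment over all genes, an adjusted p under 0.05 was reached by 29.6% of 13849 tested genes, 15.3% higher and 14.3% lower. The median log2 fold change was -2.03 over the basal keratins and 0.56 over the simple ones, against -0.01 over all tested genes. The p63KO and control libraries did not overlap for 9 of the 10 keratins, Krt4 being the exception, and 44.1% of all tested genes had groups without overlap. In such bulk samples, fewer cells of a type and less RNA per cell cannot be told apart.

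**Figure D1:**
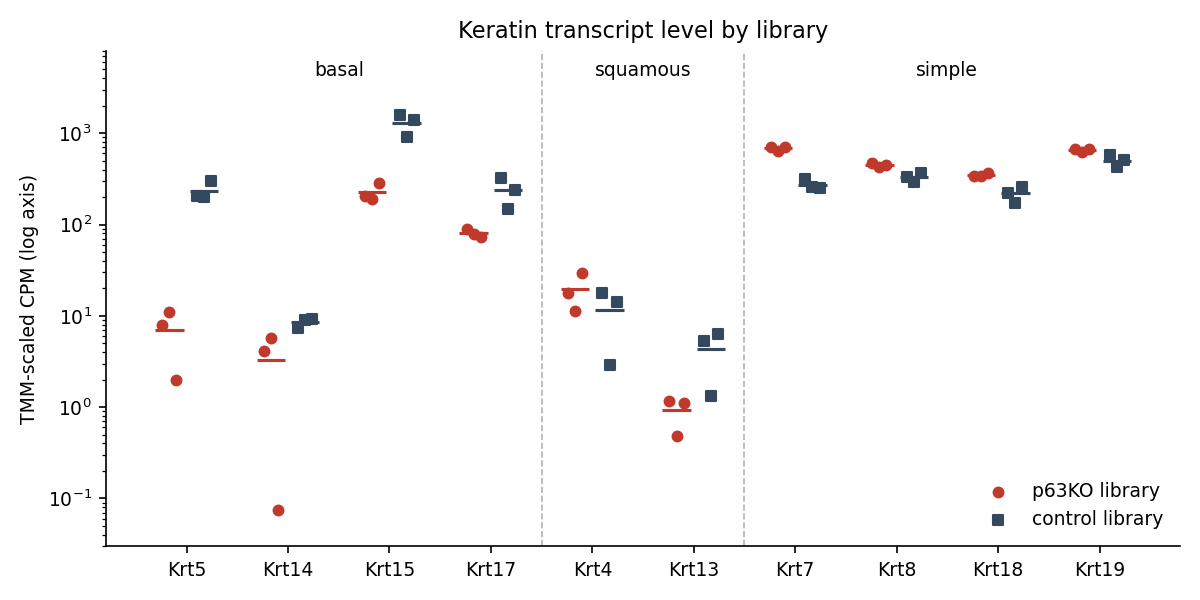
TMM-scaled CPM of the 10 keratins on a log axis, with circles for the 3 p63KO libraries, squares for the 3 control libraries and a bar at each group mean. Krt5, Krt15 and Krt17 sit lower in every p63KO library, the 4 simple keratins sit higher in every p63KO library, and Krt4 overlaps.

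Krt15, a type I keratin of basal cells, was the most abundant keratin of the control epithelium. It was 204, 190.6 and 286 CPM in p63KO replicates 1, 2 and 3, against 1571, 902 and 1380 CPM in control replicates 1, 2 and 3. Every p63KO library lay below every control library by a wide margin, although control replicate 2 was lower than the other controls. This was a log2 fold change of -2.50 (SE 0.22, edgeR adjusted p = 2.9e-05), which left 17.7% of the control level.

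Krt5, the type II partner of basal type I keratins and the classical marker of basal cells, fell furthest. It was 7.97, 10.9 and 2.01 CPM in the p63KO libraries, against 203, 199.8 and 298 CPM in the control libraries. The mutant libraries were uniformly low and p63KO replicate 3 was the lowest. Its log2 fold change was -5.05 (SE 0.37, edgeR adjusted p = 1.1e-05), leaving 2.98% of the control level. With 1 library left out it lay between -5.46 and -4.64 and passed each time.

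Krt17, a type I keratin of embryonic ectoderm, periderm and activated keratinocytes, fell least of the called basal keratins. It was 90.3, 79.1 and 72.1 CPM in the p63KO libraries, against 325, 146 and 241.3 CPM in the control libraries. The groups did not overlap, and the controls spread over a wider range than the mutants. The fold change on the log2 scale was -1.56 (SE 0.24, edgeR adjusted p = 0.0011), leaving 33.9% of the control level.

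Krt14, the best known type I partner of Krt5 in skin, was scarce in both genotypes. Its counts were 70, 82 and 1 in the p63KO libraries (4.13, 5.68 and 0.074 CPM), against 136, 174 and 158 in the control libraries (7.30, 8.89 and 9.30 CPM). All p63KO libraries lay below the controls, and p63KO replicate 3 lay far below the other p63KO libraries. The log2 fold change was -1.35 with a 95% interval of -2.95 to 0.25 (SE 0.71, edgeR adjusted p = 0.20), so it did not pass. Without p63KO replicate 3 it was -0.79 (adjusted p = 0.043), and p63KO replicate 3 alone against the controls gave -6.70 (adjusted p = 0.0011), a fit in which the lone library is assumed to vary like the controls. It did not pass in any other setting tried.

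The spread of Krt14 followed transcripts of cornifying epidermis. Lor, the cornified envelope protein loricrin, was 19.4, 27.1 and 0.22 CPM in the p63KO libraries, against 19.4, 22.1 and 22.7 CPM in the control libraries. Krt77, a type II keratin of skin, was 8.56, 13.2 and 0 CPM in p63KO, against 8.32, 10.6 and 9.24 CPM in control. Lor and Krt77 were thus present in 5 libraries at a similar level and nearly absent from p63KO replicate 3. Krtdap, a keratinocyte differentiation gene, was 3.19, 3.46 and 0 CPM in p63KO and 2.04, 2.96 and 4.71 CPM in control. The epidermal type II keratin Krt1 was 8.50, 8.59 and 1.78 CPM in p63KO, against 10.6, 11.5 and 12.6 CPM in control. Its type I partner Krt10 was 33.2, 36.4 and 14.6 CPM in p63KO and 32.7, 36.7 and 34.2 CPM in control. Per 100 Lor counts there were 21.3 and 20.9 Krt14 counts in p63KO replicates 1 and 2, and 37.7, 40.3 and 40.9 in the controls, while p63KO replicate 3 held too few counts of either gene for a ratio. A rule chosen after the data were seen asked for above 1 CPM in every other library and under 0.2 of the lowest of them. By this rule 19 genes were low in p63KO replicate 3, against 3 in p63KO replicate 2 and 0 in each of the other libraries. Among the 19 were Lor, Krt77, Krt79, Krtdap, Dsg1a, Flg2 and Krt14, and also Col17a1, Serpinb5, Nell2, Postn and Acta1. The part of the epidermal transcripts in the Krt14 and Krt5 values was not tested.

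**Figure D2:**
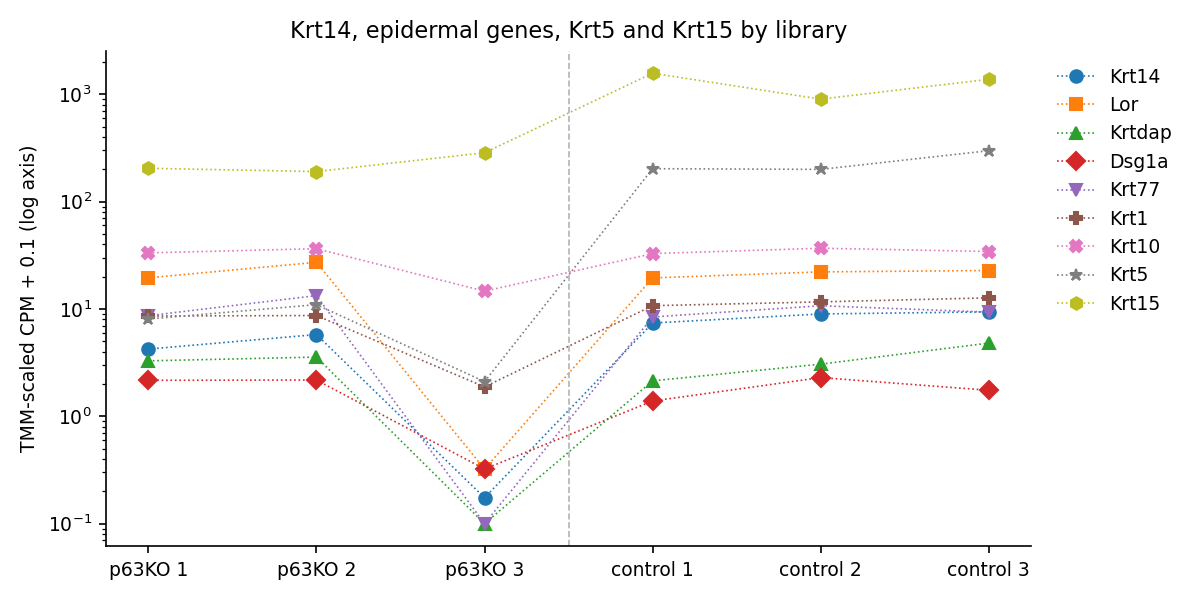
TMM-scaled CPM plus 0.1 on a log axis for Krt14, Krt5, Krt15 and 6 genes of cornifying epidermis in each library, p63KO on the left. Krt14, Lor, Krtdap, Dsg1a and Krt77 drop together in p63KO replicate 3, whereas Krt15 is as high there as in the other mutants.

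Krt5 and Krt14 did not keep a constant ratio. There were 1.93, 1.91 and 27 Krt5 counts per Krt14 count in p63KO replicates 1, 2 and 3, against 27.8, 22.5 and 32.1 in the controls. The p63KO library that nearly lacked Lor and Krt77 was the one with the control-like ratio, but it rests on 27 and 1 counts. The controls held Lor and Krt77, and a link of these genes to the ratio was not tested. The log2 ratio differed by -2.55 between p63KO and control (exact permutation p = 0.20, two-sided, adjusted p = 0.20 over 4 pairs).

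The squamous keratins were scarce at this stage. Krt13, the type I keratin of the suprabasal esophagus, had 20, 7 and 15 counts in the p63KO libraries (1.18, 0.48 and 1.11 CPM), against 98, 26 and 107 counts in the control libraries (5.26, 1.33 and 6.30 CPM). The groups did not overlap, but control replicate 2 was barely above the mutants. Krt13 had a log2 fold change of -2.19 (SE 0.57, edgeR adjusted p = 0.019). The call was lost without p63KO replicate 2 (-1.87, adjusted p = 0.065), without p63KO replicate 3 (-2.33, adjusted p = 0.053) and without control replicate 1 (-2.02, adjusted p = 0.055).

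Krt4, the type II partner of Krt13, did not follow it. It was 17.9, 11.3 and 29.3 CPM in the p63KO libraries, against 17.9, 2.91 and 14.01 CPM in the control libraries. The ranges overlapped and control replicate 2 was the lowest library. The log2 fold change was 0.75 with a 95% interval of -0.48 to 1.98 (edgeR adjusted p = 0.35), an interval that holds both a fall and a rise. Krt4 counts per Krt13 count were 15.2, 23.3 and 26.3 in the p63KO libraries and 3.40, 2.19 and 2.22 in the control libraries, with no overlap. The log2 ratio was higher by 3.04 in p63KO (exact permutation p = 0.10, the smallest that 3 against 3 can give, adjusted p = 0.13 over the 4 pairs).

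Krt7, a type II keratin of simple and glandular epithelia, rose most among the simple keratins. Krt7 was 700.0, 645 and 698 CPM in the p63KO libraries, against 314, 257 and 250.2 CPM in the control libraries. All mutant libraries were above all controls, and the mutants lay close together. The rise was 1.32 on the log2 scale (SE 0.09, edgeR adjusted p = 8.1e-06), a 2.49-fold level.

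Krt8 and Krt18, the primary keratin pair of simple epithelia and the earliest to appear in the embryo, rose less. Krt8 was 468, 422 and 449 CPM in p63KO, against 336, 289.8 and 365 CPM in control (log2 fold change 0.44, SE 0.09, edgeR adjusted p = 0.0051). Krt18 was 340.0, 339.6 and 369 CPM in p63KO, against 221, 174 and 260.5 CPM in control (log2 fold change 0.68, SE 0.13, edgeR adjusted p = 0.0031). Neither gene's groups overlapped. There were 1.38, 1.24 and 1.22 Krt8 counts per Krt18 count in the p63KO libraries and 1.52, 1.66 and 1.40 in the control libraries, so the mutants were lower without overlap. The log2 ratio differed by -0.25 (exact permutation p = 0.10, adjusted p = 0.13). Among the 1859 stretches of 100 bases in the Krt8 transcript, 17.1% occur unchanged in transcripts of other annotated loci (Krt8-ps and Gm36026), so part of its reads could not be placed with certainty.

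Krt19, a type I keratin without a type II partner of its own and common in simple and ductal epithelia, changed least. It was 668, 619.8 and 678 CPM in the p63KO libraries, against 578, 423 and 505 CPM in the control libraries. The lowest mutant was above the highest control by a small margin. The log2 fold change was 0.38 (SE 0.10, edgeR adjusted p = 0.022), and the call was lost without p63KO replicate 1 (0.37, adjusted p = 0.071) or p63KO replicate 3 (0.36, adjusted p = 0.080). Krt7 counts per Krt19 count were 1.05, 1.04 and 1.03 in the p63KO libraries, against 0.543, 0.608 and 0.496 in the control libraries. The mutant ratios were nearly equal to each other and above all controls, with a log2 difference of 0.93 (exact permutation p = 0.10, adjusted p = 0.13).

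**Figure D3:**
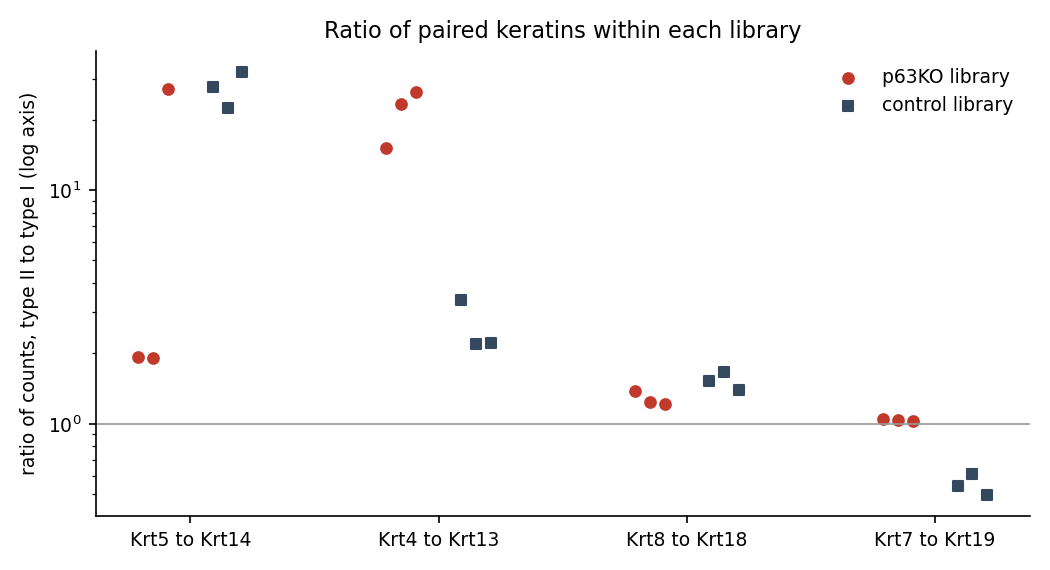
Counts of the type II keratin per count of its type I partner in each library on a log axis, with circles for p63KO and squares for control. The Krt4 to Krt13 and Krt7 to Krt19 ratios are higher in every p63KO library, the Krt8 to Krt18 ratio is lower, and p63KO replicate 3 stands apart from the other mutants for Krt5 to Krt14.

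Control replicate 3 held transcripts of intestinal endoderm, and of some listed liver genes, that were scarce in the other libraries. The intestinal factor Cdx2 had 919 counts there and at most 2 in any other library, and Gata4 had 1187 counts against at most 4. Vil1 and Cdh17, of the intestinal brush border and epithelium, were 20.8 and 20.5 CPM there, against at most 7.08 and 4.08 CPM in p63KO and 0.46 and 0.868 CPM in the other controls. The stomach genes Barx1, Tff1, Tff2 and Gkn2 were no higher than 0.824 CPM in control replicate 3, and were scarce in the other libraries as well. Of the same list, Hnf4a had 826 counts in control replicate 3 and at most 19 in any other library. Pdx1 had 42 counts there and 0 elsewhere. Whether stomach or pancreas was also present was not tested. The 15 markers of stomach, intestine and pancreas summed to 300.1 CPM in control replicate 3, to between 55.4 and 69.5 CPM in p63KO and to 70.9 and 69.6 CPM in control replicates 1 and 2. The 6 liver markers summed to 52.99 CPM in control replicate 3 and to at most 1.36 CPM elsewhere. That sum came from Afp, Apoa1, Ttr and Serpina1a, while Apoa2 had no count in that library. Alb was at 0 in every library, and the tissue source of the liver-list transcripts was not tested. The endoderm of stomach, intestine, pancreas and liver also uses simple keratins. Without control replicate 3 the log2 fold changes of Krt7, Krt8, Krt18 and Krt19 were 1.25, 0.51, 0.82 and 0.39, and those of Krt5, Krt15, Krt17 and Krt13 were -4.84, -2.45, -1.55 and -1.81. All 8 passed (edgeR adjusted p between 4.3e-06 and 0.043).

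The summed keratin message did not separate the genotypes. The 10 keratins summed to 2502, 2324 and 2584 CPM in the p63KO libraries, against 3578, 2405 and 3330 CPM in the control libraries. The groups overlapped, since p63KO replicates 1 and 3 exceeded control replicate 2. Basal and squamous keratins together were 338 ± 47.2 CPM in p63KO and 1780 ± 458 CPM in control, while simple keratins were 2132 ± 92.3 CPM in p63KO and 1325 ± 160 CPM in control (SD, n = 3 each). These sums were not tested, since the members were chosen with results of these data known.

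As a share of the summed counts of the 10 keratins, simple keratins made up 87.0%, 87.2% and 84.9% in p63KO replicates 1, 2 and 3, against 40.5%, 47.6% and 41.5% in the control libraries. The mean shares were 86.4% ± 1.26 in p63KO and 43.2% ± 3.83 in control (SD, n = 3 each), and the gap between the groups was many times the spread within them. Basal keratins held 12.8% ± 0.94 in p63KO and 56.3% ± 3.57 in control. Squamous keratins held 0.815% ± 0.34 in p63KO and 0.478% ± 0.26 in control, with overlapping libraries.

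Within the simple class the shares shifted in the same direction but by unequal amounts. Krt7 held 27.6% ± 0.50 in p63KO and 8.99% ± 1.60 in control, the largest gain of share. Krt19 held 26.5% ± 0.26 in p63KO and 16.3% ± 1.22 in control. Krt8 held 18.1% ± 0.66 in p63KO and 10.8% ± 1.34 in control, and Krt18 held 14.2% ± 0.52 in p63KO and 7.08% ± 0.83 in control.

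Most of the share lost by the basal class was that of Krt15. Krt15 held 9.14% ± 1.65 in p63KO and 41.0% ± 3.23 in control. Krt5 held 0.288% ± 0.20 in p63KO and 7.64% ± 1.74 in control, and Krt17 held 3.27% ± 0.43 in p63KO and 7.47% ± 1.51 in control. Krt14 held 0.137% ± 0.12 in p63KO and 0.284% ± 0.083 in control, where the libraries overlapped. Krt13 held 0.037% ± 0.014 in p63KO and 0.131% ± 0.069 in control, and Krt4 held 0.778% ± 0.33 in p63KO and 0.347% ± 0.20 in control. A share rises when other members fall, so the shares of simple keratins combine their own rise with the loss of Krt15, Krt5 and Krt17.

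**Figure D4:**
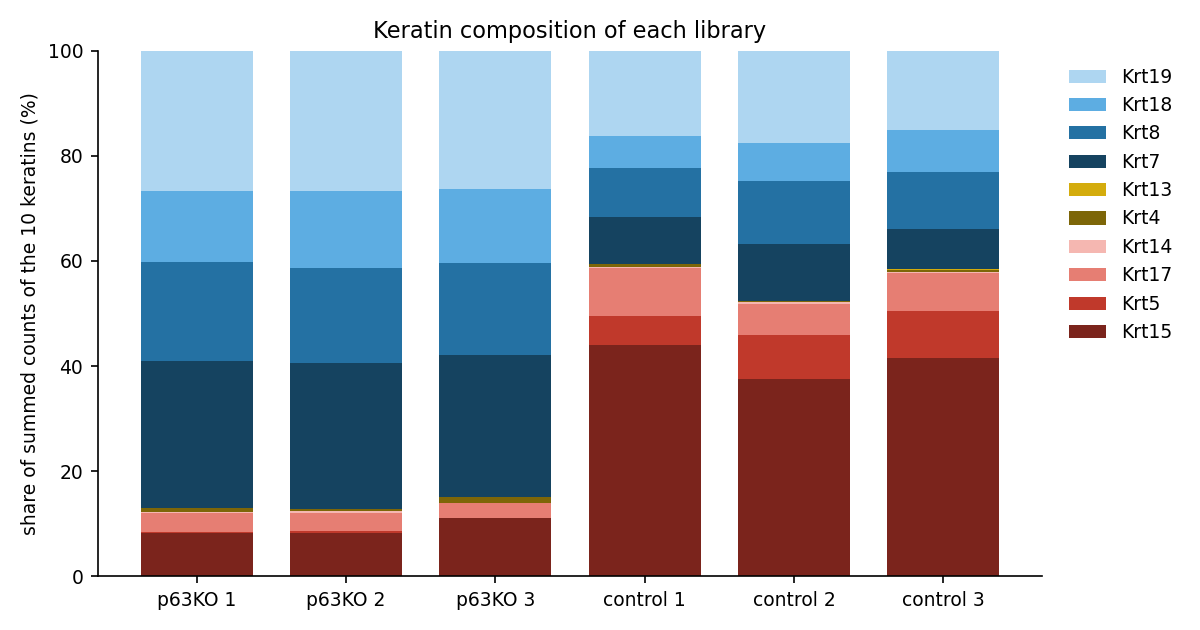
Share of each keratin in the summed raw counts of the 10 keratins, as stacked percentages per library, with p63KO on the left. Simple keratins (blue) fill 84.9% to 87.2% of the bars in p63KO and 40.5% to 47.6% in control, and Krt15 (dark red) is the largest control segment.

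The ratio of type II to type I keratin transcripts was higher in the mutant, although type I transcripts still exceeded type II transcripts. Protein was not measured. The ratio of summed type II to type I CPM was 0.913, 0.881 and 0.839 in the p63KO libraries, against 0.321, 0.453 and 0.386 in the control libraries. The groups did not overlap, and per coding length the ratios averaged 0.780 ± 0.031 in p63KO and 0.338 ± 0.056 in control (SD, n = 3 each). Type I transcripts summed to 1316 ± 85.3 CPM in p63KO and 2255 ± 541 CPM in control. Type II transcripts summed to 1154 ± 56.9 CPM in p63KO and 849 ± 90.8 CPM in control. The type I gene Krt15 alone was 227 CPM in p63KO and 1284 CPM in control, a larger fall than that of the type I sum. Single pairs went both ways. The log2 ratio was lower in p63KO for Krt5 to Krt14 (-2.55) and Krt8 to Krt18 (-0.25). It was higher for Krt4 to Krt13 (3.04) and Krt7 to Krt19 (0.93).

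Levels of different keratins were compared as CPM per kilobase of coding length. Krt19 ranked first in every p63KO library (542 ± 25.6 CPM per kilobase), followed by Krt7 (497 ± 22.8), Krt8 (304 ± 16.0), Krt18 (275 ± 13.1), Krt15 (166 ± 37.5) and Krt17 (62.0 ± 7.06). In control, Krt15 ranked first in every library (939 ± 252 CPM per kilobase) and Krt19 second (415 ± 64.3). By their means, Krt8 (225 ± 25.8), Krt7 (199.7 ± 25.6), Krt17 (183 ± 68.8) and Krt18 (172 ± 34.1) followed in control, with Krt5 next (134 ± 32.2). Krt8 was above Krt18 in every control library, while the control ranges of Krt7, Krt17 and Krt18 overlapped. At the bottom, Krt4, Krt5, Krt14 and Krt13 were at 12.4, 3.99, 2.27 and 0.707 CPM per kilobase in p63KO. In control, Krt4, Krt14 and Krt13 were at 7.37, 5.85 and 3.28. Krt5 thus lay with the scarce keratins in p63KO and with the abundant ones in control.

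The remaining keratin genes of the table were mostly silent. Of 42 other keratins, 12 had enough counts to test, of which 3 fell, 2 rose and 7 did not pass. The called share over all tested genes was 29.6%, with 14.3% lower and 15.3% higher. Krt75, a type II keratin of hair follicle and nail, was 0.354, 1.11 and 0 CPM in p63KO, against 2.85, 4.95 and 5.18 CPM in control (log2 fold change -3.12, SE 0.68, edgeR adjusted p = 0.0076). Krt6a, a type II keratin of activated and suprabasal squamous cells that directly neighbours Krt5, was 0.767, 0 and 1.04 CPM in p63KO, against 4.51, 2.40 and 5.18 CPM in control (log2 fold change -2.73, SE 0.68, edgeR adjusted p = 0.015). Of the stretches of 100 bases in the Krt5 transcript, 3.81% occur unchanged in Krt6a, Gm44323 or Gm5478, so reads from there could not be placed with certainty.

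Krt20, a type I keratin of intestinal and urothelial cells, fell although it is counted among keratins of simple epithelia. It was 13.3, 14.6 and 19.1 CPM in p63KO, against 27.3, 27.0 and 35.5 CPM in control (log2 fold change -0.94, SE 0.16, edgeR adjusted p = 0.0021). The highest value was in control replicate 3, the library with intestinal transcripts, and the other controls were also above all mutants. Krt80, a type II keratin expressed in many epithelia and placed beside Krt7 in the genome, was 13.9 ± 1.55 CPM in p63KO and 5.76 ± 0.33 CPM in control, without overlap (SD, n = 3 each). Its log2 fold change of 1.26 (SE 0.15, edgeR adjusted p = 2.4e-04) was close to that of Krt7. Krt83, a hair keratin, was 2.29 ± 0.69 CPM in p63KO and 0.943 ± 0.37 CPM in control (1.27, SE 0.39, edgeR adjusted p = 0.035). Those that did not pass were Krt1, Krt10, Krt77, Krt78, Krt79, Krt23 and Krt31, and all of these but Krt31 were lowest in p63KO replicate 3.

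**Figure D5:**
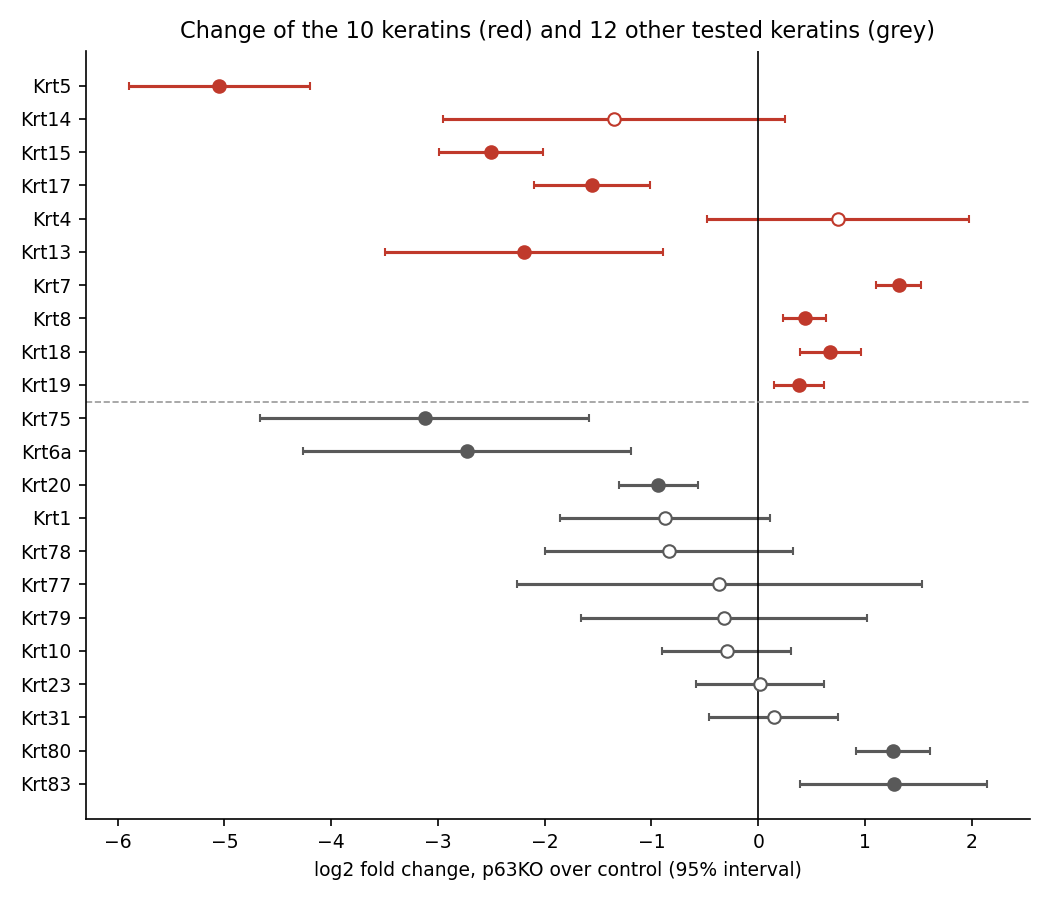
Log2 fold change of p63KO over control with its 95% interval for the 10 keratins (red) and the 12 other tested keratins (grey), where filled points passed an adjusted p of 0.05. Krt5 lies furthest to the left at -5.05 and Krt7 is the member furthest to the right at 1.32.

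Genes that attach keratin filaments or act with them mostly fell with the basal keratins. Of 16 genes of plakins, desmosomal plaques and keratin-associated proteins, 13 fell, 1 rose and 2 did not pass (14.3% of all tested genes were lower), with a median log2 fold change of -0.87 against -0.01 over all genes. Trim29, a keratin-binding protein of basal cells, had a log2 fold change of -5.11. Sfn, the 14-3-3 protein of keratinocytes, was 13.9 ± 0.79 CPM in p63KO and 323 ± 36.0 CPM in control. Perp, a desmosomal membrane protein, and Eppk1, a plakin that binds keratin networks, had log2 fold changes of -3.98 and -1.97. The plakophilin Pkp2 rose, and Macf1 (-0.13) and Tchp (0.06) did not pass.

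Of 14 intermediate filament genes other than keratins, 4 rose, 1 fell and 9 did not pass, a called share near the 29.6% of all tested genes. Nes, the nestin of neural and other progenitors, was 165 ± 10.9 CPM in p63KO and 90.2 ± 8.02 CPM in control (log2 fold change 0.87, SE 0.08, edgeR adjusted p = 4.8e-05). The neurofilament genes Nefh and Nefm had log2 fold changes of 1.61 and 1.12. Synm, the synemin gene, fell (-1.09), and the mesenchymal filament gene Vim was 142 ± 8.65 CPM in p63KO and 155 ± 21.3 CPM in control, without passing.

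Of 21 listed genes of squamous differentiation in the table, 12 were tested, of which 5 fell, 1 rose and 6 did not pass. Over all tested genes 14.3% were lower and 15.3% higher. Besides cornified envelope genes the list holds desmosomal genes and regulators. Tgm1, Dsc2, Dsg3, Grhl3 and Ovol1 fell, and the receptor Notch3 rose. The envelope genes Ivl, Sprr1a and Cnfn had too few counts to be tested. Grhl3, a barrier transcription factor, was 8.94 ± 1.46 CPM in p63KO and 177 ± 20.2 CPM in control. Tgm1, a transglutaminase that crosslinks the envelope, Dsg3, a desmosomal cadherin of basal layers, and Ovol1, an epithelial transcription factor, had log2 fold changes of -3.21, -3.64 and -1.22. Lor, Krtdap, Dsg1a and Sbsn were among those that did not pass, and each was lower in p63KO replicate 3 than in every other library.

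Among all tested genes other than keratins, those nearest to Krt5 in their pattern over the 6 libraries, by Euclidean distance between centred profiles of log2(CPM + 0.5), were Serpinb5 (distance 0.663), Snai2 (1.18) and Cbr2 (1.20). Serpinb5, a serpin of basal epithelial cells, was 0.954 ± 0.74 CPM in p63KO and 51.3 ± 5.30 CPM in control. It was also among the genes low in p63KO replicate 3, with 19, 23 and 2 counts in p63KO replicates 1, 2 and 3. Those nearest to Krt7 were Cntnap4 (0.150), Arl4a (0.159) and Pipox (0.173). Cntnap4 was scarce, with 17, 12 and 14 counts in the p63KO libraries and 4, 1 and 0 in the control libraries. Its log2 fold change was 3.30, against 1.32 for Krt7. The added 0.5 CPM shrinks the profile of so scarce a gene, so its rank does not show an equal change. Arl4a, a small GTPase, was 52.8 ± 0.66 CPM in p63KO and 22.7 ± 3.16 CPM in control.

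Markers of other tissues were measured beside the keratins. Mesothelium also makes simple keratins, and of its markers Wt1 had at most 6 counts and Upk3b at most 10 in any library, and Bnc1, the most abundant listed member and also a gene of basal keratinocytes, was 3.03 ± 0.82 CPM in p63KO and 47.7 ± 4.18 CPM in control (SD, n = 3 each). Of 5 tested mesothelium genes, Msln and Gpm6a rose together with the simple keratins, while Bnc1 and Upk1b fell. Over all tested genes 15.3% were higher and 14.3% lower. Msln was 1.58 ± 0.58 CPM in p63KO and 0.319 ± 0.24 CPM in control. Gpm6a was 5.58 ± 1.56 CPM in p63KO and 0.858 ± 0.51 CPM in control. The edgeR adjusted p was 0.010 for Msln and 0.0011 for Gpm6a, and their part in the simple keratin levels was not tested. The list summed to between 9.14 and 12.996 CPM in p63KO and between 52.4 and 58.1 CPM in control. Most of the control sum was Bnc1, at 52.0, 47.5 and 43.6 CPM in control replicates 1, 2 and 3. The lower sum in p63KO was thus mostly the fall of Bnc1. The notochord factor Noto had 1 count in all, and Shh, a signal that foregut endoderm also expresses, had the highest group mean of its list (348 ± 60.5 CPM in p63KO and 496 ± 80.6 CPM in control). Next was Foxa2, also a foregut gene, at 452 ± 18.5 CPM in p63KO and 306 ± 42.0 CPM in control. The notochord list summed to between 762 and 864 CPM in p63KO and between 755 and 887 CPM in control. The tracheal and lung factor Nkx2-1 had between 4 and 13 counts in p63KO and between 6 and 9 in control. Blood markers summed to between 11.2 and 24.6 CPM in p63KO and between 2.69 and 39.0 CPM in control, and endothelial markers to between 3.88 and 7.65 CPM in p63KO and between 4.14 and 7.30 CPM in control.

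Neuroendocrine markers rose in p63KO, whereas mesenchymal markers had no single direction. The 11 mesenchyme genes summed to between 1313 and 1715 CPM in p63KO, mostly through Dcn, and between 454 and 539 CPM in control. Of these genes 3 rose (Dcn, Tbx18 and Twist1), 4 fell (Col1a1, Col3a1, Pdgfra and Pdgfrb) and 4 did not pass. Over all tested genes 15.3% were higher and 14.3% lower. Col1a1 was 67.7, 42.7 and 21.7 CPM in p63KO and 106, 65.3 and 109.9 CPM in control. All 10 neuroendocrine genes rose, with sums between 434 and 556 CPM in p63KO and between 4.65 and 9.48 CPM in control. Of 7 tested enteric neuron genes 4 rose, with Ret the most abundant. The part of these cells in the simple keratin levels was not tested. The general epithelial gene Epcam was 947 ± 5.13 CPM in p63KO and 851 ± 6.61 CPM in control (log2 fold change 0.15, edgeR adjusted p = 0.057), and Cdh1, the epithelial cadherin, was 684 ± 23.0 CPM in p63KO and 905 ± 28.3 CPM in control (log2 fold change -0.40, edgeR adjusted p = 7.6e-04).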

How the data were processed

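The deposited values are unnormalised counts, 1 row a gene symbol, for 6 libraries, tied to samples by column names that stand in the sample descriptions. The submitters' processing notes name TopHat2 2.1.0, bcl2fastq 1.8.4 and DESeq2, and build mm9, and the sources used here do not name the counter, annotation or strand setting. Total counts were 16506401, 14460621 and 13335328 in p63KO replicates 1, 2 and 3 and 18907837, 20093838 and 16948971 in control replicates 1, 2 and 3, so that 3 counts were 0.153 to 0.223 CPM.

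Counts were fitted in R 4.3.3 with edgeR 4.0.16 (quasi-likelihood test, filterByExpr with a minimum count of 10 and a total of 15, TMM scaling, group as the only term), which kept 13849 of the 18572 genes with a count. Benjamini-Hochberg adjustment ran over all tested genes with a threshold of 0.05, and the SE is the size of the log2 fold change divided by the square root of F. The test recovered 52.2%, 98.5% and 100.0% of 67, 67 and 66 genes changed 1.5-fold, 2-fold and 4-fold in simulated p63KO and control counts of 13750 genes, with 4 false calls. Every simulated gene had the same dispersion between libraries, and genes of low count were not among those changed. Recovery for scarce or more variable genes was thus not measured. No pair of replicates agreed within sampling noise (chi-square per degree of freedom 7.79 to 14.8).

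Pair ratios were tested by exact permutation (SciPy 1.17.1). Shares were taken from raw counts. Coding lengths and shared stretches came from GENCODE M21, and promoters from RefSeq GRCm38.p6 (6 of 10 keratins matched). No coordinates of the files were used. The members and lists were chosen with earlier results of these data known. Named genes were the members, every other tested keratin of at least 1 CPM in a group, the 4 lowest p-values of 3 companion lists, the most abundant marker of each other cell type and the 3 genes nearest to Krt5 and to Krt7, and any further gene was chosen after its values were seen. A gene that this rule names is not reported here. Alternatives were DESeq2 1.42.0 size factors and test, upper quartile scaling, other filters, a replicate block, leaving out single libraries, coding length and all keratins for the shares, and a pseudocount for the ratios.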

Additional observations from a re-analysis of the deposited data

How the results depend on the processing

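The calls and directions of the 10 keratins were the same with DESeq2 size factors, upper quartile scaling, the DESeq2 test, no filter, the filter of 1 CPM in 3 libraries and the replicate block. Leaving out 1 library at a time gave 3 to 4 basal keratins lower, 0 to 1 squamous keratins lower and 3 to 4 simple keratins higher, and 1650 to 1965 higher and 1500 to 1806 lower genes over all. Against the controls, p63KO replicate 3 alone, a fit added after the data had been seen, gave 1023 higher and 974 lower genes, 0 squamous keratins lower and 1 simple keratin higher (Krt7). The log2 fold changes of the others were then -1.71 for Krt17, -1.93 for Krt13, 0.46 for Krt8, 0.76 for Krt18 and 0.44 for Krt19, with edgeR adjusted p between 0.056 and 0.25. The share of simple keratins, p63KO minus control, was 43.2 percentage points, 42.0 per coding length, 41.7 over every keratin gene and 41.8 to 45.4 with 1 library left out. The pair ratios had 1 direction in all of these settings. Per coding length, the share of Krt5 differed by -5.76 points in place of -7.35.

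The replicate numbers do not show that the libraries are paired. Deviations of same-numbered libraries correlated at 0.202, 0.273 and 0.049, and each library correlated best with its own number, which is a hint from the data and not part of the design. The replicate block gave 2397 higher and 2381 lower genes, against 2113 and 1985 without it, and changed no keratin call. For the pair ratios its exact permutation p was 0.25, the smallest that 3 pairs can give. Krt14 and Krt13 had as few as 1 and 7 counts in a library, and the intervals of Krt13, Krt14 and Krt4 were wide, so small changes of these genes were not detectable.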
